A study of Bos taurus with 15 samples.

Results

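The genes described here are 10 striated muscle genes in bovine thymus: COX6A2, ACTA1, MYH7, MYL1, CKM, MB, TNNT1, TNNT3, NEB and DES. A probe was taken where the scanner files give it one of these symbols as its gene name or in the bracketed part of its description. The rule found 11 probes for the 10 genes, among 21475 bovine probes, which name 14730 genes in all. COX6A2 was put on the list because it stood first by p-value among the genes lower with prednisolone, so its difference between the groups is given below as a description with no test. The difference of each other member comes from the same contrast and is described in the same way.

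RNA from the thymus of 15 Holstein cows, taken when they were slaughtered, was labelled with 1 dye and hybridised to 1 oligonucleotide array per animal. The treated group held 8 cows that received the glucocorticoid drug prednisolone orally, 30 mg for each animal daily over 35 days, and the control group held 7 cows whose treatment label is none. The labels separate the groups by this treatment alone, and the age of the animals is not given in the sources used here. Values are log2 processed signals minus the 75th percentile of the array's bovine spots, so that a difference of 1 is a doubling of signal. Levels of different genes are not set against each other on this scale.

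Striated muscle shortens when thick filaments of myosin pull on thin filaments of actin, which troponin opens to myosin when calcium rises. The fibres also hold desmin filaments that tie the contractile units together, creatine kinase and myoglobin for energy and oxygen, and muscle forms of several mitochondrial proteins. COX6A2 is the heart and skeletal muscle form of subunit 6A of cytochrome c oxidase, the last enzyme of the respiratory chain, and its counterpart in most other tissues is COX6A1. The thymic medulla is known to hold scattered myoid cells, which make striated muscle proteins. In a piece of whole thymus, fewer cells of a type and less RNA per cell cannot be told apart.

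The tissue label held on all arrays, since each of the 11 thymocyte genes with a probe, such as RAG1 and PTCRA, was well above background on all 15. The arrays lay on 4 slides that held the groups unevenly. Slide 1 carried controls 1, 2 and 5 and prednisolone animal 6, slide 2 carried control 3 and prednisolone animals 3, 5 and 8, and slide 3 carried controls 4, 6 and 7 and prednisolone animal 1. Slide 4 carried prednisolone animals 2, 4 and 7 only, so slide and treatment cannot be told apart there. Its 3 arrays had between 840 and 1050 spots marked as outliers by the scanner software, against 5 to 17 on the others, but no spot of a member was among those left out.

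Of the 10 members, 8 had a probe well above background on at least 7 of the 15 arrays and were kept: ACTA1, TNNT1, TNNT3, MYH7, MYL1, DES, MB and COX6A2. The probe of CKM was above background on 5 arrays and those of NEB on 0 and 1. In the fit of prednisolone against control over all 16069 kept probes, 0% passed a limma adjusted p of 0.05, in either direction, and 1138 had an unadjusted p under 0.05. None of the 8 kept members passed, and nothing is read from that count because the contrast chose COX6A2.

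**Figure D1:**
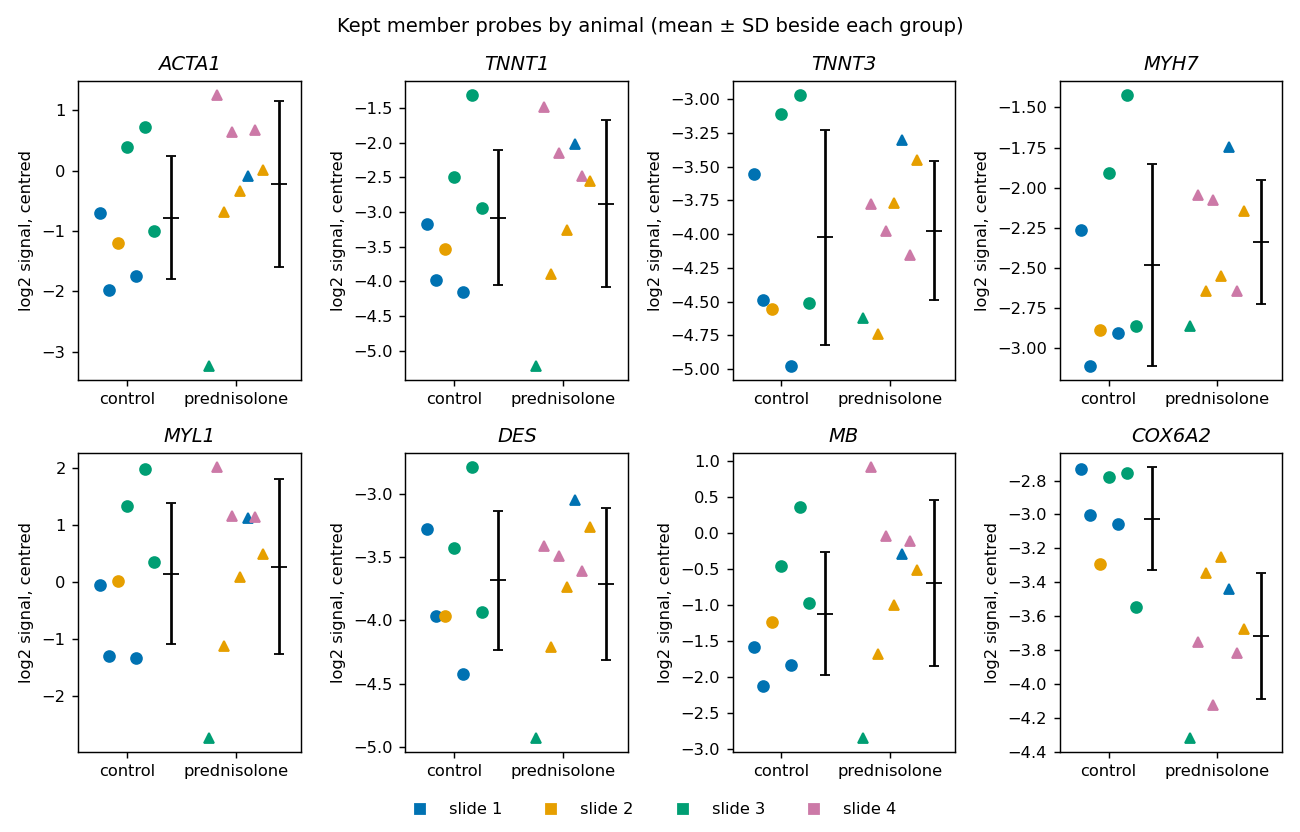
Centred log2 signal of the 8 kept member probes in each animal (circles controls, n = 7; triangles prednisolone, n = 8; colour gives the slide), with the mean ± SD beside each group. The groups overlap for every gene, and the vertical axes differ between panels, from a range of 1.59 for COX6A2 to 4.76 for MYL1.

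ACTA1 encodes skeletal alpha-actin, the core of the thin filament. It ran from -1.98 to 0.73 in the controls, with a median of -0.996, and from -3.24 to 1.26 in the prednisolone group, with a median of -0.04. The highest values were in prednisolone animal 2 and control 6, the lowest in prednisolone animal 1, and the groups overlapped widely. The means were -0.79 ± 1.02 (SD, n = 7) and -0.22 ± 1.37 (SD, n = 8), a difference of 0.56 ± 0.58 (SE). Within slides 1, 2 and 3 the difference was 1.38, 0.86 and -3.28, and it was -0.08 without slide 4 and -0.35 with slide as a fixed block. Both of the last values keep prednisolone animal 1, the only treated animal on slide 3. Without that animal the difference was 0.99, and it was 1.12 with slide as a fixed block as well. Its direction thus depended on which slides and animals were counted. Over all 15 animals the signal spanned 22.5-fold.

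TNNT1 and TNNT3 encode troponin T, the tropomyosin-binding arm of troponin, in its slow and fast fibre forms. TNNT1 lay between -4.16 and -1.31 in the controls, with a median of -3.17, and between -5.22 and -1.49 in the treated animals, with a median of -2.52. TNNT3 lay between -4.98 and -2.97 in the controls, with a median of -4.49, and between -4.74 and -3.30 in the treated, with a median of -3.88. The differences were 0.20 ± 0.53 and 0.05 ± 0.32 (SE), and the total spans were at least 15.1-fold, since the lowest TNNT1 value was not above background, and 4.02-fold. Both forms were highest in control 6, and the groups overlapped. Prednisolone animal 1 was the only animal in which TNNT1 was not well above background.

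Nebulin, from NEB, is the giant ruler protein of the thin filament. Its 2 probes chosen by the rule were well above background on 0 and 1 arrays, which gives only an upper bound on the level. A further probe, outside the rule, carries the nebulin gene number in the files and was above background on 13 arrays. An array counted where either spot was above background, and singly the spots were so on 11 and 8 arrays. It ran from -5.77 to -5.05 in the controls and from -6.29 to -5.04 in the prednisolone group, with a difference of -0.38 ± 0.20 (SE), measured above background on 7 of 7 and 6 of 8 arrays. Its paired spots had Pearson r = 0.33 over the 15 arrays (permutation p = 0.23; Spearman rho = 0.45, permutation p = 0.0941).

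MYH7 encodes the slow and cardiac myosin heavy chain, the motor of slow fibres. It ran from -3.11 to -1.42 in the controls, with a median of -2.86, and from -2.86 to -1.75 with prednisolone, with a median of -2.35. Its difference of 0.14 ± 0.25 (SE) was smaller than its SD in either group, 0.63 in the controls and 0.39 in the treated animals. MYL1, the essential light chain of fast myosin, had the widest span of the kept members, 27.02-fold. It ran from -1.33 to 1.98 in the controls, with a median of 0.02, and from -2.74 to 2.02 in the prednisolone group, with a median of 0.80. Its group means differed by 0.13 ± 0.67 (SE), and within slides 1, 2 and 3 by 2.01, -0.20 and -3.96. The MYL1 probe is named by its description only, and the files give it the same gene number as a probe described as MYL3.

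DES encodes desmin, the intermediate filament of all muscle, smooth muscle included. It ran from -4.42 to -2.79 in the controls and from -4.93 to -3.05 in the treated animals, with medians of -3.93 and -3.55 and a difference of -0.03 ± 0.28 (SE). MB encodes myoglobin, which stores oxygen in slow fibres and heart. It ran from -2.12 to 0.36 in the controls and from -2.84 to 0.92 in the prednisolone group, with medians of -1.24 and -0.41 and a difference of 0.42 ± 0.49 (SE) over a 13.6-fold span. The groups overlapped for both genes, and prednisolone animal 1 was lowest for both.

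CKM encodes the muscle creatine kinase, which regenerates ATP from phosphocreatine. Its probe was well above background in controls 4 and 6 and in prednisolone animals 2, 4 and 7, and elsewhere only a bound on its level is known. These are the 5 animals with the highest ACTA1, all at 0.39 or more, while the next animal stood at 0.01. Detection also moved with slide. Prednisolone animal 8, on slide 2, had CKM at -6.001 and was not above background, while prednisolone animals 4 and 7, on slide 4, were above it at -6.09 and -6.36. The lowest value called above background on an array lay between -9.24 and -8.58 on slide 4 and between -8.08 and -6.77 elsewhere, and its part in the match with ACTA1 was not tested.

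The relation among the muscle genes from animal to animal was read against ACTA1. Fitted on the ACTA1 value of the array, 36 of 16068 kept probes, 0.224%, passed a limma adjusted p of 0.05, every one in the same direction as ACTA1, and 1698 had an unadjusted p under 0.05. MB, MYL1, TNNT1 and DES were among them, 4 of the 6 other kept muscle members. MB rose by 0.79 ± 0.07 (SE) per log2 unit of ACTA1, MYL1 by 1.05 ± 0.10, TNNT1 by 0.82 ± 0.08 and DES by 0.37 ± 0.07, with limma adjusted p of 2.04e-05, 3.16e-05, 7.36e-05 and 0.0403. The slopes of MYH7, 0.31 ± 0.07, and TNNT3, 0.35 ± 0.10, did not pass (limma adjusted p = 0.256 and 0.428). ACTA1 was taken as the reference after the data were seen.

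The calls of MB, MYL1 and TNNT1 held with any single animal left out. The call of DES was kept in 5 of 15 such fits, with limma adjusted p between 0.0270 and 0.119, so that the desmin result stood at the edge of the threshold. With slide as a fixed block the same 4 genes passed, and 28 probes in all. In a fit with that block that left out prednisolone animal 1, 11 probes passed, among them MYH7 and TNNT3 (limma adjusted p = 0.0196 and 0.0274), while MB, MYL1, TNNT1 and DES did not (0.103, 0.0826, 0.0573 and 0.0879). Their slopes in that fit were 0.78 for MB, 1.05 for MYL1, 0.94 for TNNT1 and 0.60 for DES, with SE from 0.11 to 0.18. With normexp background correction MB and MYL1 passed, and TNNT1 and DES did not.

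Correlations were also taken over the 15 arrays. Pearson r with ACTA1 was 0.95 for MB, 0.94 for MYL1 and 0.93 for TNNT1, each with a permutation p of 2e-05, the smallest that 1e+05 permutations gave, and Spearman rho was 0.94, 0.94 and 0.91 with the same p. DES had r = 0.81 (permutation p = 5e-04; rho = 0.74, permutation p = 0.00248), MYH7 0.74 (0.00092; rho = 0.825, 0.00036) and TNNT3 0.67 (permutation p = 0.00502; rho = 0.65, permutation p = 0.0108). Without prednisolone animal 1 and control 2, the arrays farthest from the median of ACTA1, r stayed between 0.65 and 0.92 for these 6 genes. Among the 7 controls alone r lay between 0.86 and 0.97, and among the 8 treated animals between 0.53 for TNNT3 and 0.96 for MYL1 and MB. A slide held 3 or 4 arrays, too few for a correlation within it, and 7 relations with ACTA1 were computed, counting the nebulin probe outside the rule (r = 0.04, permutation p = 0.893; rho = -0.11, permutation p = 0.699).

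**Figure D2:**
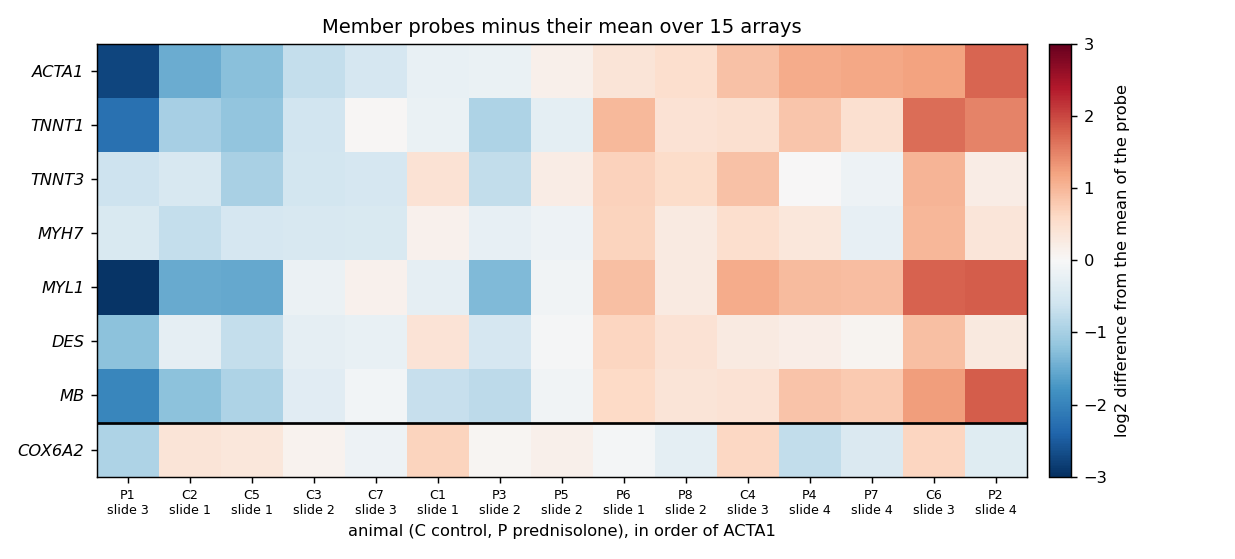
Difference of each kept member probe from its own mean over 15 arrays (colour, log2), with animals in order of ACTA1 from lowest to highest. The 7 upper rows turn from blue to red from left to right, while COX6A2 below the line stays within about 1 of its mean and is low on slide 4 and in prednisolone animal 1.

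COX6A2 ran from -3.55 to -2.73 in the controls, with a median of -3.003, and from -4.32 to -3.25 in the prednisolone group, with a median of -3.72. The lowest values were in prednisolone animals 1, 4, 7 and 2, of which the last 3 make up slide 4, and the highest in controls 1, 6 and 4. The groups overlapped, since control 7, at -3.55, lay below prednisolone animals 3, 5 and 6, and control 3, at -3.29, below prednisolone animal 5. The means were -3.02 ± 0.31 (SD, n = 7) and -3.72 ± 0.37 (SD, n = 8), a difference of -0.69 ± 0.17 (SE), and the whole span over 15 animals was 3.01-fold. Within slides 1, 2 and 3 the difference was -0.51, -0.13 and -1.29, without slide 4 it was -0.58, and in a fit with slide as a block that left out prednisolone animal 1 it was -0.32.

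The probe has 2 spots on each array, and the spots did not give the same difference. The first ran from -3.50 to -2.42 in the controls and from -4.58 to -3.03 in the treated animals, and the second from -3.69 to -2.86 and from -4.06 to -3.27. The first spot was the brighter one in 7 of 7 controls and in 3 of 8 treated animals, and it was the dimmer one on all arrays of slide 4. The group means of the first were -2.81 ± 0.35 and -3.76 ± 0.56 (SD), and those of the second -3.24 ± 0.31 and -3.67 ± 0.24 (SD), so that the difference was -0.95 by the first and -0.43 by the second. The spots correlated with r = 0.82 (permutation p = 1e-04; rho = 0.75, permutation p = 0.00154). Their median SD within an array was 0.30, larger than that of 90.2% of kept probes. The gap between the spots' differences was 0.52, against 0.05 to 0.29 for the other kept members, and its part in the group difference was not tested.

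**Figure D3:**
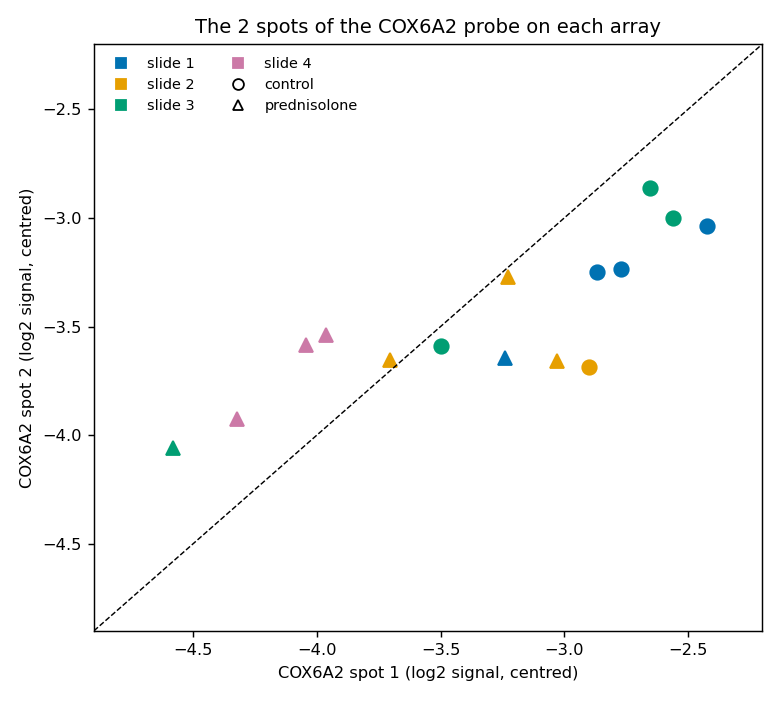
The first spot of the COX6A2 probe against the second on each array (both axes centred log2 signal; circles controls, triangles prednisolone; colour gives the slide), with a dashed line of equality. All 7 controls lie below the line, where the first spot is brighter, and the 3 arrays of slide 4 lie above it with prednisolone animals 1 and 8.

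The relation of COX6A2 to the muscle genes was read over all 15 arrays, which pool both groups, so these values are not independent of the group difference that chose COX6A2. Fitted on the COX6A2 value of the array, 0% of the other 16068 kept probes passed a limma adjusted p of 0.05, and 2216 had an unadjusted p under 0.05. None of the 7 muscle members passed, with limma adjusted p from 0.546 for DES to 0.978 for MB. ACTA1 had r from 0.67 for TNNT3 to 0.95 for MB with the other kept muscle members. Its r with COX6A2 was 0.08 (permutation p = 0.781; rho = -0.125, permutation p = 0.654), with a 95% interval for r of -0.45 to 0.57. DES had r = 0.36 (permutation p = 0.202; rho = 0.20, permutation p = 0.487) and MB r = -0.03 (permutation p = 0.918; rho = -0.19, permutation p = 0.497). The other 4 had r between 0.12 for TNNT1 and 0.31 for TNNT3 (permutation p from 0.261 to 0.677), and rho between -0.09 and 0.32 (permutation p from 0.255 to 0.849). In all, 8 relations were computed with COX6A2, the nebulin probe outside the rule included.

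Single animals and slides moved these values. Without prednisolone animals 1 and 4, the arrays farthest from the median of COX6A2, r with ACTA1 was -0.29, with DES 0.11 and with MB -0.37. Without prednisolone animal 1 alone, which was lowest for both COX6A2 and ACTA1, r with ACTA1 was -0.38. Without the 3 arrays of slide 4 it was 0.55, and with slide as a fixed block 0.68 (limma adjusted p = 0.273), while with the block and without prednisolone animal 1 it was 0.19. All 7 members had a positive r without slide 4, from 0.35 for MYH7 to 0.56 for DES, on arrays that still held prednisolone animal 1. Within the controls, where the group difference plays no part, r with ACTA1 was 0.50 (exact permutation p = 0.245), with TNNT3 0.73 (0.0456), with MYH7 0.69 (0.0615) and with DES 0.64 (0.101), and with the other 3 between 0.24 and 0.37 (exact permutation p from 0.41 to 0.621). Within the prednisolone group r was 0.32 with ACTA1 (exact permutation p = 0.459) and between 0.17 and 0.40 with the others. These p-values are not adjusted over the relations computed. By rank the signs in the prednisolone group were mixed. There rho was -0.21 with ACTA1, MYL1 and MB, -0.05 with TNNT1, 0.14 with DES, 0.17 with MYH7 and 0.36 with TNNT3. With treatment as a second term in the fit, the partial r was positive for all 7, from 0.20 for MB to 0.50 for TNNT3, and none passed (limma adjusted p from 0.659 to 0.796). With normexp background correction 4 muscle members passed, TNNT3, DES, MYH7 and TNNT1, as did 10737 probes in all. No muscle member passed in the other fits named here, and the 95% interval for ACTA1 given above reaches from a negative to a positive relation.

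**Figure D4:**
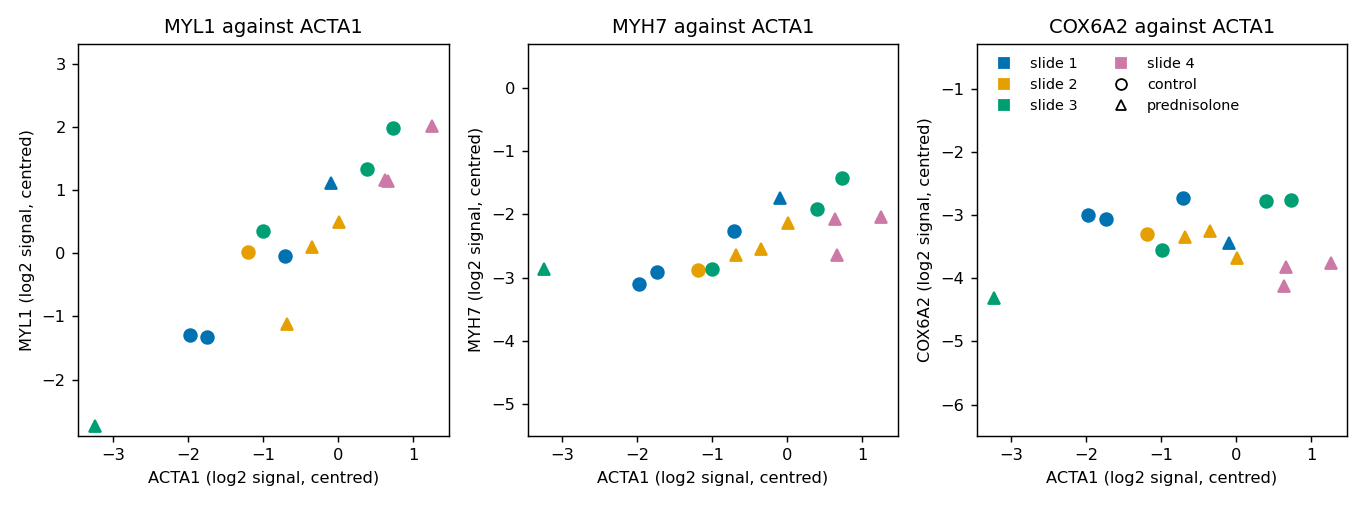
MYL1, MYH7 and COX6A2 against ACTA1 in the 15 animals (centred log2 signal; vertical axes cover equal spans; circles controls, triangles prednisolone; colour gives the slide). MYL1 (r = 0.94) and MYH7 (r = 0.74) climb with ACTA1, and COX6A2 (r = 0.08) has its low values at both ends, in prednisolone animal 1 and on slide 4.

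The mean of the 7 kept muscle members put the animals in one order with no gap between the groups. It was highest in control 6, at -0.77, and prednisolone animal 2, at -0.93, and lowest in prednisolone animal 1, at -3.78. Its r with COX6A2 was 0.15, and 72.8% of the other kept probes had a lower one. The genes most like the mean were PDE4DIP (r = 0.99), TPM1, TNNC2, KLHL41, MYL11, TNNC1, MYH1 and AMPD1, all with r of 0.98 or more over 15 arrays. TPM1 encodes a tropomyosin, TNNC2 and TNNC1 the calcium-binding troponin C of fast and slow fibres, MYL11 the regulatory light chain of fast myosin and MYH1 the heavy chain of fast fibres. Least alike were TCEANC2 (r = -0.78), MRM3 (-0.76), EIF2S3 (-0.73) and FXYD6 (-0.73).

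Over all 15 arrays the 8 genes most like COX6A2 were in none of the muscle lists. They were ITGA11 (r = 0.88), an integrin subunit that binds collagen, FDX1 (0.87), which passes electrons to steroid-making enzymes, SPIRE2 (0.86), HS3ST3B1 (0.86), DENND1A (0.83), LTB4R2 (0.83), a leukotriene B4 receptor, TEKT4 (0.83) and SANBR (0.82). Least alike were SBDS (r = -0.90), a ribosome assembly factor, LTBP4 (-0.84), POLA2 (-0.83) and TXNDC11 (-0.81). These r values contain the group difference that chose COX6A2. All 8 most alike were lower with prednisolone, by differences from -1.56 for HS3ST3B1 to -0.33 for SPIRE2, and all 4 least alike were higher, from 0.15 for SBDS to 0.69 for POLA2. TEKT4 was above background on 5 of 7 control and 6 of 8 treated arrays, SANBR on 5 and 4 and POLA2 on 1 and 6. Without slide 4 the r of the 8 lay between 0.76 and 0.87, and LDB3, at 0.85, lay within that range. They are descriptions over arrays that share slides, since no probe passed. The kept nebulin probe outside the rule had r = 0.78 with COX6A2 (permutation p = 0.00072, limma adjusted p = 0.143; rho = 0.77, permutation p = 0.00104), and r = 0.67 without the 2 arrays farthest from the median. It stood at -6.01, -6.14 and -6.29 on slide 4 and at -6.29 in prednisolone animal 1, and above these values on the other arrays. Without slide 4 its r with COX6A2 was 0.70. Within the controls r was 0.80 (exact permutation p = 0.0377) and within the prednisolone group 0.75 (exact permutation p = 0.0204). These p-values are not adjusted over the relations computed.

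Beyond the members, 102 other striated muscle genes were taken in 6 lists by role. Of these 93 had a probe, 70 were kept and 11 were well above background on no array. With prednisolone 42 of the 70 were higher and 28 lower, 0 passed against 0% of all kept probes, and the median difference was 0.03 against -0.00044 for all kept probes. Of all kept probes 49.9% were higher. Genes of a list share arrays and slides, so such counts are not independent. With COX6A2, 0 of 70 passed, with a median r of 0.18 against 0.05 for all kept probes. Without the 3 arrays of slide 4 the median r with COX6A2 was 0.42 against 0.03. It was higher than over 15 arrays for 46 of the 70, and for 7334 of the 16068 other kept probes. LDB3, a Z disc protein, went from 0.24 to 0.85, ACTC1 from 0.17 to 0.74 and TCAP, which caps titin at the Z disc, from 0.30 to 0.67. The 12 arrays left still held prednisolone animal 1, lowest for both COX6A2 and ACTA1, and its part in these values was not tested. With ACTA1, 20 of 70 passed against 0.224% of all kept probes, all in the same direction, with a median r of 0.50 against -0.03.

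**Figure D5:**
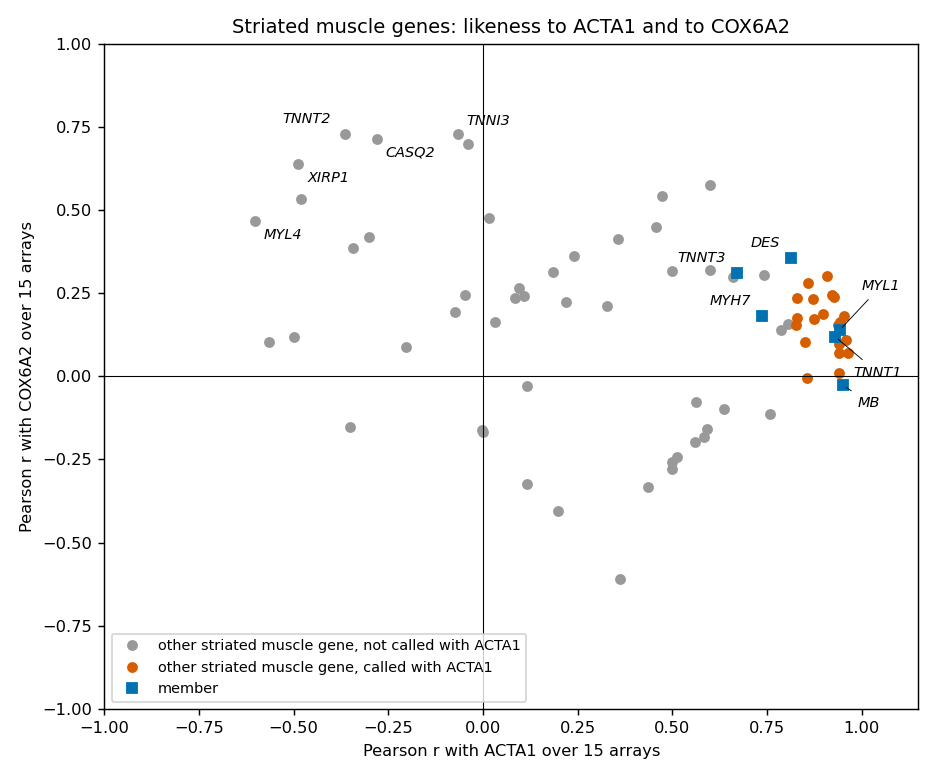
Pearson r with ACTA1 (horizontal) and with COX6A2 (vertical) over 15 arrays for 70 other kept striated muscle genes and 6 kept members. The 20 orange genes that passed with ACTA1 and the members sit at the right with r of at most 0.36 with COX6A2, and the genes highest with COX6A2 lie to the left or in the middle.

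Among the other thin filament genes 4 of 8 kept genes passed with ACTA1: TNNC2 (r = 0.95, range over animals 4.78), TPM1 (0.94, 3.73), TNNC1 (0.93, 4.15) and ACTC1 (0.87, 1.76), the cardiac actin that is also made in immature skeletal muscle. Among thick filament genes 5 of 9 passed: MYH1 (r = 0.96), MYL11 (0.94), MYL3 (0.91), MYL2 (0.87) and MYH3 (0.86), the embryonic myosin heavy chain. The largest differences between the groups in these 2 lists, none of which passed, were those of TNNI3 (-0.82 ± 0.33, SE), TNNT2 (-0.79 ± 0.39), MYH4 (-0.56 ± 0.39) and MYBPC3 (-0.47 ± 0.17). TNNT2 was above background on 6 of 7 control and 4 of 8 treated arrays and TNNI3 on 7 of 7 and 7 of 8, so that their differences rest in part on values not above background. MYBPC3 averaged -4.84 on slide 4, which held treated animals only, and -3.97 on the others, and MYH4 -4.14 and -3.91. Slow and fast fibre genes were both represented, since 3 of 6 other slow and 4 of 12 other fast fibre genes passed. The slow genes that passed included MYL3, whose probe carries the same gene number as that of MYL1, a fast fibre gene. Of the Z disc and cytoskeleton list 6 of 15 passed, led by SMPX (r = 0.94), ANKRD1 (0.94), KLHL41 (0.92) and KLHL40 (0.86). ANKRD1 had the widest range over animals of the called genes, 5.16. Between the groups XIRP1 (-1.26 ± 0.55, SE) and SMPX (0.53 ± 0.74) had the largest differences, and XIRP1 averaged -7.57 on slide 4 and -4.69 on the others. XIRP1 was above background on 7 control and 6 treated arrays, and SMPX on 5 and 6.

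Of the calcium and excitation list 3 of 17 passed, TRDN (r = 0.94), SLN (0.90) and HRC (0.85), all proteins of the calcium store. The fetal acetylcholine receptor subunit CHRNG had r = 0.74 and did not pass (limma adjusted p = 0.207), and its adult counterpart CHRNE had r = -0.35 (0.641). Of the regulators 1 of 10 passed, MYOG (r = 0.83, limma adjusted p = 0.0259), which drives the last step of muscle cell differentiation. MYOD1 was above background on 8 of 15 arrays and MYF6 on 15, while MYF5 was above it on none. Of the energy list AMPD1 alone passed, 1 of 11 (r = 0.96). The largest group differences in these 3 lists, again with none passing, were CASQ2 (-0.72 ± 0.33, SE) and TRDN (0.48 ± 0.62), MYOD1 (0.50 ± 0.35) and ITGB1BP2 (0.23 ± 0.17), and PGAM2 (-0.58 ± 0.47) and SLC25A4 (0.24 ± 0.09). CASQ2 was above background on 6 of 7 control and 3 of 8 treated arrays, MYOD1 on 3 and 5 and TRDN on 6 and 7, so that their differences too rest in part on values not above background. CASQ2 averaged -7.43 on slide 4, which held treated animals only, and -5.82 on the others. TRDN averaged -3.53 and -4.98, and MYOD1 -5.54 and -6.02. The part of slide in these differences was not tested. The remaining probes of the 36 belonged to genes in none of the lists, among them PDE4DIP, SH3BGR, SRL, CA3, ATCAY, MYBPH and RBM24, to 3 probes without a symbol and to a second probe of MYH1.

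Most subunits of cytochrome c oxidase are made in nearly all cells, and some have forms restricted to certain tissues. Of 15 other kept cytochrome c oxidase genes 13 were lower and 2 higher with prednisolone, while 49.9% of all kept probes were higher. Of the 15, 0 passed, and the median difference was -0.06 against -0.00044 for all kept probes. The largest were COX5B (-0.15 ± 0.09, SE) and COX6B2 (-0.11 ± 0.18), while COX6A2, chosen by this contrast, stood at -0.69 ± 0.17. The muscle forms COX7A1 and COX8B differed by -0.06 ± 0.07 and -0.07 ± 0.09, and their r with ACTA1 was 0.10 and 0.11. COX6A1, the form of other tissues, had no probe named here.

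COX6A2 is made in heart as well as skeletal muscle. Of 9 kept heart muscle genes 7 were lower with prednisolone, while 49.9% of all kept probes were higher. Of the 9, 0 passed, and the median difference was -0.28. The largest were those of TNNI3 and TNNT2, the cardiac troponins I and T, given above. The list's median r was 0.47 with COX6A2 and -0.36 with ACTA1, and 1 of 9, ACTC1, passed with ACTA1. Without slide 4 the median r with COX6A2 was 0.10. TNNT2 averaged -7.49 on slide 4 and -5.57 on the others, and TNNI3 -6.27 and -4.89. The mean of the list ran from -4.86 to -4.37 in the controls and from -5.63 to -4.29 in the prednisolone group. NKX2-5 and TBX5 were never above background, and the part of slide in these values was not tested.

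Markers of other cell types that hold the same proteins were read in the same way. Of 11 kept smooth muscle genes 10 were higher with prednisolone, against 49.9% of all kept probes. Genes of a list share arrays and slides, so this count is not one of independent genes. Of the 11, 0 passed, the median difference was 0.17, and 0 passed with ACTA1. CNN1 (0.37 ± 0.31, SE) and TAGLN (0.30 ± 0.26), both actin-binding proteins of smooth muscle, had the largest differences. The mean of that list ran from -1.94 to -1.33 in the controls and from -1.69 to -0.80 in the treated animals, with r = -0.09 with COX6A2 and 0.27 with ACTA1.

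In mice COX6A2 is also known from plasmacytoid dendritic cells and brown fat. Of 10 kept plasmacytoid dendritic cell genes 5 were higher and 5 lower with prednisolone, with a median difference of -0.01, and 0 passed in the contrast, with COX6A2 or with ACTA1. DNASE1L3 (-0.41 ± 0.22, SE) and RUNX2 (-0.26 ± 0.50) had the largest differences. RUNX2 averaged -0.499 on slide 4, which held treated animals only, and 0.601 on the others. DNASE1L3 averaged -1.80 on slide 4, also below its mean on the others. The part of slide in these 2 differences was not tested. Of 5 kept brown fat genes 3 were higher and 2 lower, with CIDEA at 0.34 ± 0.30 (SE) and PPARGC1A at 0.16 ± 0.17 (above background on 5 and 7 arrays), and UCP1 was above background on 3 arrays. All 6 kept white fat genes were higher, against 49.9% of all kept probes, with a median difference of 0.29. LPL stood at 0.85 ± 0.51 and PLIN1 at 0.49 ± 0.87 (above background on 4 and 7 arrays), and 0 passed. Of the tissue's own genes, 4 of 10 kept thymic epithelial and 9 of 11 thymocyte genes were higher, with medians of -0.03 and 0.11, led by PSMB11 (0.21 ± 0.36) and CLDN4 (-0.16 ± 0.27, above background on 4 and 4 arrays), and by CD8A (0.23 ± 0.07) and LCK (0.22 ± 0.12), and 0 of either passed in any of the 3 fits.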

How the data were processed

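Thymus RNA of 15 cows was measured on 15 one-colour Agilent bovine arrays, grouped by treatment label. Replicate numbers follow sample order only. Per the file headers, the deposited intensity values are processed signals of the scanner software, Feature Extraction 9.5.1.1, less a background surface fitted across the array and divided by a fitted multiplicative trend, and the deposited flags mark spots above background, outlying or saturated. Every deposited processed signal had at most 3 significant digits. The authors also deposited a table of processed intensity, used as an alternative, and the submitters' processing notes name R 2.11.1. Whether that table was centred is unknown. Its scale is linear, it runs in the direction of the signal, and its columns had medians from 188.5 to 274.1.

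The log2 of the deposited processed signal was centred on each array's 75th percentile, outlier spots were left out, and the spots of a probe were averaged. Of 21475 bovine probes 16412 were given a symbol, 9712 by gene number, 3398 by accession, 3294 by description and 8 by gene name, and a probe stayed in if at least 7 of 15 arrays held it well above background, which left 16069 probes of 11755 genes. A probe counted as well above background on an array where any of its spots was. Values between arrays correlated with r from 0.967 to 0.991 across kept probes, which are not independent replicates. No array had a member spot saturated, and precision is limited by how few arrays there are.

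Contrasts and slopes were fitted over all kept probes in R 4.3.3, using limma 3.58.1 and, for the random block, statmod 1.5.0, and p-values were adjusted by Benjamini-Hochberg. The calculation was tested on simulated data. Correlations used 1e+05 two-sided permutations, or all orders within a group, in scipy 1.17.1.

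The members, the lists and the tests were chosen with earlier results of these data known. Every member was named. Also named were the 8 genes most and the 4 least like COX6A2 or the muscle mean, up to 4 genes that passed per list and the 2 with the largest differences where none passed. MYH3, LDB3 and TCAP beside COX6A2, CHRNG, CHRNE, MYOD1, MYF5, MYF6, COX7A1, COX8B, UCP1, NKX2-5, TBX5 and the nebulin probe outside the rule were named after their values were seen. Settings tried beside these were the authors' values, centring on the median, quantile normalization, other filters, normexp (offset 50) for the background, slide as a fixed or random block, treatment as a second term and leaving out each animal. Leaving out slide 4 (also for the medians of muscle lists), the block without prednisolone animal 1, the fit on ACTA1 and single spots of COX6A2 were added after the data were seen.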

Additional observations from a re-analysis of the deposited data

Results flagged for a closer look

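ACTA1 in prednisolone animal 1 stood at -3.24, far below the other 7 animals of its group. The next lowest was prednisolone animal 3 at -0.68, and the gap was 0.569 of the whole range of the group, just over the limit for 8 samples. This animal was also the lowest of its group for TNNT1, MYL1, DES, MB, MYH7 and COX6A2, though in none of these by a gap over the limit. In all 18 groups of values were examined in this way, and chance marks about 1 in 20. Some counts, slopes and correlations without this animal are given in the report and below. Without it the group difference was 0.99 for ACTA1, 0.73 for MB, 0.56 for MYL1, 0.53 for TNNT1, 0.14 for DES and -0.61 for COX6A2.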

How the results depend on the processing

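No paired analysis was possible because the replicate numbers follow the order of the samples and the labels tie no treated cow to a control. The count of probes passing between prednisolone and control was 0, but 1 with quantile normalization, 1 in a fit with slide as a block that left out prednisolone animal 1, and between 0 and 3 with 1 animal left out, 3 without prednisolone animal 1. Probes passing with COX6A2 numbered 0, but 10737 with normexp background correction, 2 when only probes above background on all arrays were tested, and 0 to 32 with 1 animal left out, 32 without control 6. Of the muscle members 0 passed with COX6A2, but 4 under normexp, which were TNNT3 (r = 0.93), DES (0.89), MYH7 (0.72) and TNNT1 (0.56), at a setting under which most probes passed. Probes passing with ACTA1 numbered 36, but 10 under normexp and 11 in a fit with slide as a block that left out prednisolone animal 1, and 30 to 38 with 1 animal left out. Among them were 4 muscle members, but 2 under normexp (MB and MYL1) and 2 in that block fit (MYH7 and TNNT3), and 3 or 4 with 1 animal left out. Over the 12 other settings MB and MYL1 each passed in 11 and DES in 9, and TNNT1 passed in 9 of the 11 that tested it. The cause of these changes was not tested. The difference of COX6A2, which the choice of the gene used, ran from -0.95 by its first spot alone to -0.32 in that block fit. Its r with ACTA1 ran from -0.38 to 0.68 and with MB from -0.43 to 0.54. Signal over background limits NEB and CKM to bounds on most arrays.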
